A study of Mus musculus with 12 samples.

Results

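The ELMO and DOCK genes code for proteins that help to switch on Rac or, for some DOCK proteins, its relative Cdc42. Rac is a small GTPase that drives actin assembly at the cell edge. In the count table of 52636 genes, 8 such genes were taken by symbol: Elmo1, Elmo2, Elmo3, Dock1, Dock2, Dock4, Dock5, and Dock10. Elmo1 was chosen because its counts rose after loss of the TGF-β receptors, so its difference between genotypes is described without a test, whereas the others were chosen as its relatives and partners. All 8 had enough counts to pass the filter on low values. SMCs (smooth muscle cells) were sorted as single, viable GFP+ cells from the thoracic aortas of male C57BL/6J mice at 12 weeks of age, 3 of each genotype, and each mouse gave 1 library per segment, ascending/arch and descending (12 libraries in 4 groups of 3). GFPiSMC mice carry Myh11-CreERT2, which is active in cells that express smooth muscle myosin heavy chain, and the mT/mG reporter that turns recombined cells green, and have intact receptor genes. Tgfbr1/2iSMCKO mice carry the same transgenes with floxed alleles of both Tgfbr1 and Tgfbr2. The Cre transgene lies on the Y chromosome, which limits the model to males. Both genotypes received tamoxifen for 5 days, at 11 weeks of age (2 mg/d) by the study's description of cells profiled shortly after receptor disruption. The labels also name 1 mg/d at 4 weeks, which the methods give for a subgroup. Mouse line and receptor loss cannot be told apart. Libraries held 20467027 to 31392396 counts from 9208 to 20000 cells, and smooth muscle markers were abundant in both genotypes (median Acta2 31073 and 27382 CPM, counts per 1000000 of the library after scaling). The deposited Tgfbr1 count, which sums deleted and retained exons and so is a weak check of the deletion, was 235 ± 35.3 CPM in GFPiSMC and 252 ± 33.0 CPM in Tgfbr1/2iSMCKO libraries (mean ± SD, n = 6 libraries of 3 animals, as for all such values over a genotype). Tgfbr2 was 106 ± 13.3 and 89.0 ± 12.5 CPM (adjusted p = 0.233, edgeR).

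DOCK proteins exchange GDP for GTP on Rac or on its relative Cdc42. Members of the DOCK1 to DOCK5 branch work with an ELMO protein, a scaffold that relieves the self-inhibition of DOCK and that can be called to the membrane by the GTPase RhoG or by receptors for dying cells. The pairs are best known from the uptake of apoptotic cells and from cell migration. The DOCK6 and DOCK9 groups, the latter with DOCK10 and DOCK11, form other branches that do not use ELMO in this way, and DOCK10 acts mainly on Cdc42.

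The stretches in front of the annotated transcription starts of Elmo1 and Dock10 are shown because these genes had the largest differences between genotypes, in opposite directions, among the 8 members. Each has 2 start sites in RefSeq (GRCm38.p6), and gene counts do not tell transcripts of the 2 starts apart. The sequences are the 250 bases before each start, 5′ to 3′ on the strand of the gene, with CAGAC or its reverse complement, the letters that Smad proteins bind, in capitals. They lie at chr13:20090257-20090506 and chr13:20472740-20472989 (plus strand) for Elmo1 and at chr1:80758554-80758803 and chr1:80665353-80665602 (minus strand) for Dock10.
Elmo1, first start: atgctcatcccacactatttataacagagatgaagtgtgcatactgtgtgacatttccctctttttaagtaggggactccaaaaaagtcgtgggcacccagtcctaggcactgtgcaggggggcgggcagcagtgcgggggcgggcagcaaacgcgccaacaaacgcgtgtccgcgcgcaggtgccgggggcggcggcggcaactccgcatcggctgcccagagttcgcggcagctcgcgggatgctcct
Elmo1, second start: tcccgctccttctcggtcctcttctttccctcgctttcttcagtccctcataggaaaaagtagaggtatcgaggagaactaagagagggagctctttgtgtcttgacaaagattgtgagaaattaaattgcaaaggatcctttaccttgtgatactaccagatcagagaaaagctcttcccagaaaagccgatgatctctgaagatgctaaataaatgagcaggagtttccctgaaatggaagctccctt
Dock10, first start: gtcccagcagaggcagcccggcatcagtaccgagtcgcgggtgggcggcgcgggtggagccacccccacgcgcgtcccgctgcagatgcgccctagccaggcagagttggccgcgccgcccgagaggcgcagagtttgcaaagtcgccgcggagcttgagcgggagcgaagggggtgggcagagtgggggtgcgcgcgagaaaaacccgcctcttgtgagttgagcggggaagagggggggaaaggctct
Dock10, second start: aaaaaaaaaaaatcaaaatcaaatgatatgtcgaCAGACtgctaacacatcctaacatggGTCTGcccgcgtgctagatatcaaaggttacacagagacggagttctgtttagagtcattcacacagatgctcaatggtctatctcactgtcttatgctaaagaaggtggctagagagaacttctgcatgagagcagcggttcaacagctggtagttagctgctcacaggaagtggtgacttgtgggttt
Both genes pair a GC-rich first window (61.6% for Elmo1 and 70.4% for Dock10) with a second window of lower GC content (43.6% and 43.2%), against a median of 52.4% over 32851 windows of the same length. CAGAC was in neither Elmo1 window, in neither strand, and stood in the second Dock10 window 216 and 190 bases before the start. Of all windows, 42.2% held it. RefSeq gave 10 windows for 6 of the 8 members (none for Elmo3 and Dock5), of which CAGAC was in the 3 of Elmo2, the 1 of Dock2, and the second of Dock10. GTCTAGAC (0.167% of all windows) and the CArG box of serum response factor (1.47%) were in none of the 10, nor was the TGF-β inhibitory element, GNNTTGGNGA (4.15%). GGCGC, a GC-rich Smad motif (32.0% of all windows), was in 5 of the 10, the first windows of Elmo1 and Dock10 included, and so was the Sp1 box GGGCGG (32.7%). The GC-rich motifs can overlap each other, and all motifs were sought on both strands.

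Elmo1 was the member with the largest difference. In GFPiSMC cells of the ascending/arch, the 3 libraries had 7.74, 6.76, and 5.70 CPM, and in those of the descending segment 5.91, 7.12, and 4.78 CPM. In Tgfbr1/2iSMCKO cells, the ascending/arch libraries had 40.3, 44.5, and 48.6 CPM and the descending libraries 35.8, 27.9, and 38.9 CPM. Every Tgfbr1/2iSMCKO library was above every GFPiSMC library, and the nearest pair differed by 3.61-fold (1.51% of all genes were higher without overlap). Counts were 119 to 211 per GFPiSMC library and 677 to 1508 per Tgfbr1/2iSMCKO library, so that counting error was small beside these differences. The log2 fold change (Tgfbr1/2iSMCKO over GFPiSMC, as throughout) was 2.62 ± 0.17 (SE), or 6.17-fold, with 2.72 ± 0.24 in the ascending/arch and 2.53 ± 0.24 in the descending segment. Among the other genes that averaged 100 counts or more, 9 had a higher log2 fold change and 11124 a lower one. These Elmo1 values chose the gene and carry no p-value. For bulk cells, a change in the number of cells that express a gene and a change per cell cannot be told apart.

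Elmo1 (ENSMUSG00000041112.16) spans chr13:20090596-20608353 on the plus strand of GRCm38, and 403 bases of its exons (3.2% of 12580) are shared with Gm32036, an antisense gene. The library kit does not mark strand, so reads from the shared bases cannot be assigned. Gm32036 itself had 0 to 23 counts (median 5) in GFPiSMC libraries and 26 to 92 (median 53.5) in Tgfbr1/2iSMCKO libraries, far fewer than Elmo1 in each.

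**Figure D1:**
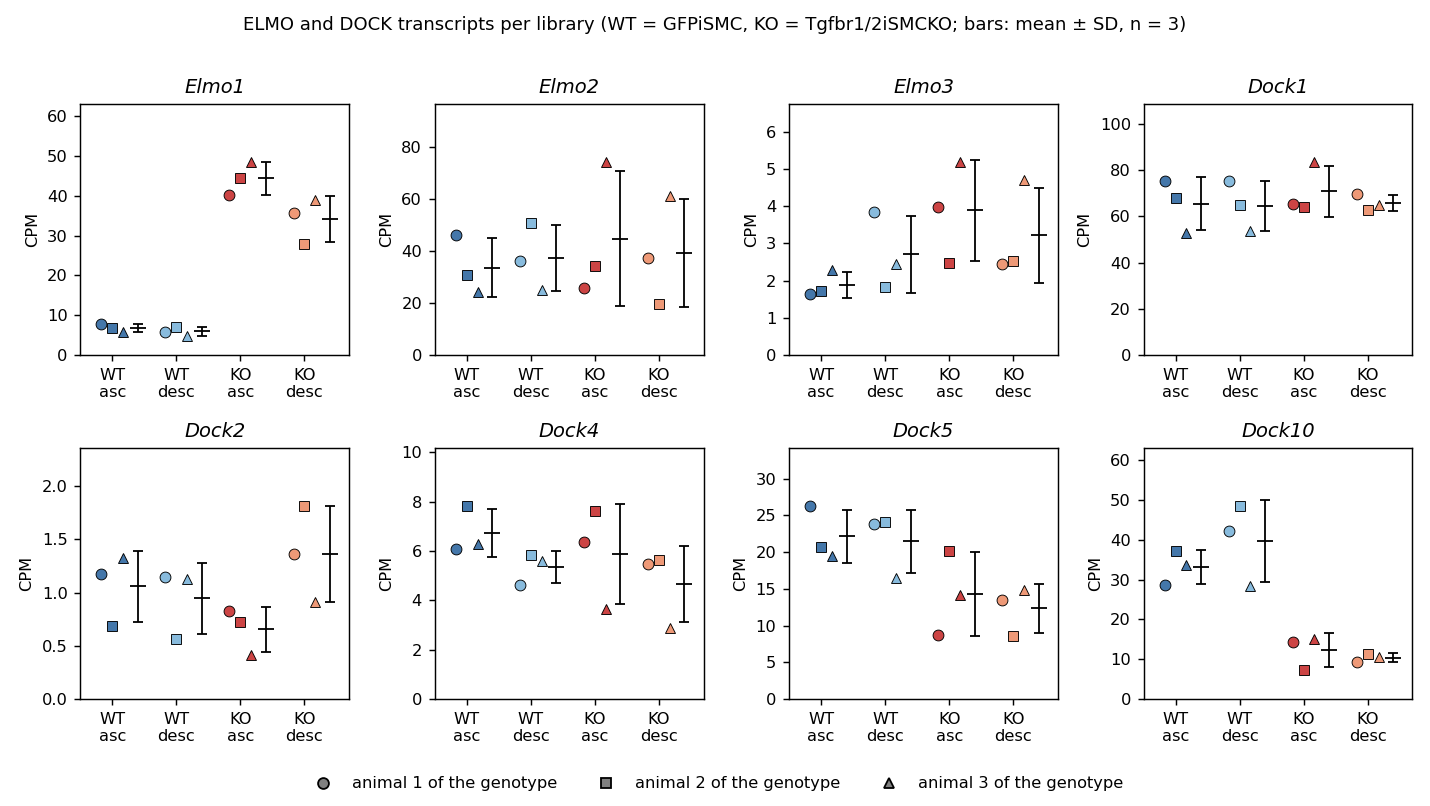
CPM of the 8 members in each library, in 4 groups (WT, GFPiSMC; KO, Tgfbr1/2iSMCKO; asc, ascending/arch; desc, descending). Point shapes mark the animal, and bars give the mean ± SD of 3 libraries on axes that start at 0. The genotypes are apart for Elmo1 (4.78 to 7.74 against 27.9 to 48.6 CPM) and for Dock10 (28.5 to 48.5 against 7.42 to 15.01 CPM) and overlap for the other 6 members.

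Of the 7 members besides Elmo1, 1 passed the test over 12 libraries (adjusted p under 0.05 by edgeR's quasi-likelihood test, Benjamini-Hochberg over 22320 genes): Dock10, which fell. The members were chosen with earlier results of these data known, so the Dock10 call may not be independent of that choice. Over all genes tested, 5.03% passed in either direction and 3.23% were lower (402 genes rose and 721 fell, or 699 and 505 when scaled by library size only). The median log2 fold change of the 7 was -0.07, beside 0.04 over all genes. Adjusted p-values are across all genes, and their error is the spread between libraries, with 2 libraries from each animal.

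Among the ELMO scaffolds, Elmo2 was the most abundant per length and did not pass the test. Its libraries ranged from 24.1 to 50.7 CPM (median 33.5) in GFPiSMC and from 19.8 to 74.4 CPM (median 35.8) in Tgfbr1/2iSMCKO cells. The highest values were the ascending/arch (74.4 CPM) and descending (61.1 CPM) libraries of 1 animal, Tgfbr1/2iSMCKO replicate 3, whereas the other 4 Tgfbr1/2iSMCKO libraries had 25.7, 37.2, 34.4, and 19.8 CPM. The log2 fold change was 0.24 ± 0.32 (adjusted p = 0.822) and turned to -0.29 (adjusted p = 0.681) without that animal. Elmo3 was scarce, from 1.65 to 3.84 CPM (median 2.05) in GFPiSMC and from 2.44 to 5.19 CPM (median 3.25) in Tgfbr1/2iSMCKO libraries. Its groups overlapped over 12 libraries, with a log2 fold change of 0.65 ± 0.31 (adjusted p = 0.323). In the ascending/arch, the Elmo3 libraries of the genotypes were apart, by 1.09-fold for the nearest pair, with a log2 fold change of 1.05 ± 0.42 that did not pass (adjusted p = 0.352), and 8.87% of all genes were likewise higher without overlap there.

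Of the DOCK proteins that pair with ELMO, Dock1, the founding partner of the ELMO scaffolds, did not pass. It ranged from 52.9 to 75.5 CPM (median 66.5) in GFPiSMC and from 62.7 to 83.6 CPM (median 65.0) in Tgfbr1/2iSMCKO libraries, with a log2 fold change of 0.07 ± 0.13 (adjusted p = 0.888). Dock4, a more distant partner of ELMO, had 4.64 to 7.83 CPM (median 5.97) and 2.87 to 7.62 CPM (median 5.56), with a log2 fold change of -0.20 ± 0.24 (adjusted p = 0.797). The lowest Dock4 values, 3.64 and 2.87 CPM, were again those of Tgfbr1/2iSMCKO replicate 3, and without it the log2 fold change was 0.044.

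Dock5, a close relative of Dock1, lay near the threshold. In the ascending/arch, the libraries had 26.3, 20.7, and 19.4 CPM in GFPiSMC and 8.75, 20.1, and 14.1 CPM in Tgfbr1/2iSMCKO cells. In the descending segment, they had 23.8, 24.2, and 16.5 CPM in GFPiSMC and 13.5, 8.58, and 14.9 CPM in Tgfbr1/2iSMCKO cells. The genotypes overlapped in the ascending/arch and were apart in the descending segment, by 1.11-fold for the nearest pair (7.75% of all genes were lower without overlap there). Over 12 libraries, the log2 fold change was -0.71 ± 0.22 (adjusted p = 0.0951), which did not pass. It passed with DESeq2 (adjusted p = 0.0200) and with genes limited to a mean of at least 50 counts (adjusted p = 0.0449).

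Dock2, the leukocyte form of DOCK1, was near the limit of detection in these cells, with 16 to 32 counts per GFPiSMC library and 13 to 44 per Tgfbr1/2iSMCKO library. These are 0.561 to 1.32 CPM (median 1.14) and 0.419 to 1.81 CPM (median 0.867), with a log2 fold change of -0.07 ± 0.37 (adjusted p = 0.964). The sign of this value changed with library size only, with counts summed per animal, and with any of 3 animals left out. Dock2 also shares 460 exon bases with an antisense gene, 4930403D09Rik, which had 0 to 7 counts per library.

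Dock10 (ENSMUSG00000038608.15, chr1:80501073-80758527, minus strand) fell in Tgfbr1/2iSMCKO cells. The GFPiSMC libraries had 28.7, 37.1, and 33.6 CPM in the ascending/arch and 42.2, 48.5, and 28.5 CPM in the descending segment. The Tgfbr1/2iSMCKO libraries had 14.4, 7.42, and 15.01 CPM in the ascending/arch and 9.23, 11.4, and 10.6 CPM in the descending segment. All 6 Tgfbr1/2iSMCKO libraries were below all 6 GFPiSMC libraries, and the nearest pair differed by 1.90-fold, where 2.89% of all genes were lower without overlap. The log2 fold change was -1.68 ± 0.21, or 3.21-fold lower (adjusted p = 0.000332), and passed in each of 15 other settings (adjusted p from 3.26e-12 to 0.00971). By segment, it was -1.43 ± 0.29 in the ascending/arch (adjusted p = 0.0330) and -1.93 ± 0.30 in the descending segment (adjusted p = 0.00528), where 1.01% and 1.21% of all genes passed as lower. The ascending/arch call was lost with any 1 animal left out (adjusted p from 0.0672 to 0.151), with a replicate block (0.0796), and with that segment fitted alone (0.0786). The descending call was lost without GFPiSMC replicate 1 (0.0551) or Tgfbr1/2iSMCKO replicate 1 (0.0594). No further member passed in either segment, where 1.41% and 1.72% of all genes passed in either direction.

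Dock3, Dock6, Dock8, Dock9, Dock11, and the ELMO domain genes Elmod1 to Elmod3 were measured beside the members. Of these 8 genes, 0 passed over 12 libraries by edgeR, and 1, Dock8, had an unadjusted p under 0.05 (16.1% of all genes did). Dock8, a Cdc42 activator best known in lymphocytes, had 15.2 to 23.8 CPM (median 20.9) in GFPiSMC and 10.02 to 19.8 CPM (median 15.4) in Tgfbr1/2iSMCKO libraries (log2 fold change -0.41 ± 0.17, adjusted p = 0.240). Dock11 and Dock9, the nearest relatives of Dock10, had log2 fold changes of 0.08 ± 0.12 (adjusted p = 0.859) and 0.12 ± 0.25 (adjusted p = 0.905). Dock6 had -0.42 ± 0.20 (adjusted p = 0.337) and Dock3, at 2 to 47 counts per library, 1.12 ± 0.68 (adjusted p = 0.494). Elmod1, Elmod2, and Elmod3 had -0.35 ± 0.40, -0.05 ± 0.16, and 0.34 ± 0.35.

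**Figure D2:**
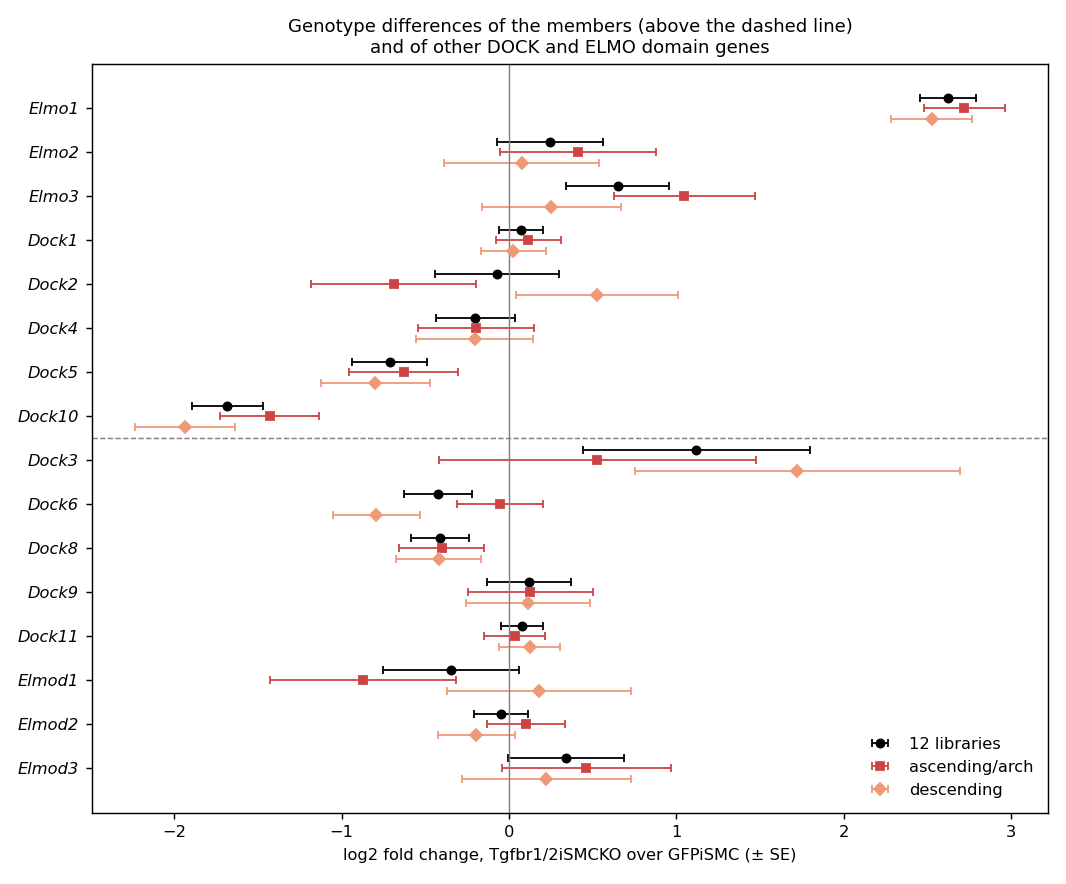
log2 fold change of Tgfbr1/2iSMCKO over GFPiSMC (± SE) for the 8 members and, under the dashed line, for 8 other DOCK and ELMO domain genes. Black circles use 12 libraries, red squares the ascending/arch, and orange diamonds the descending segment. Elmo1 lies at 2.62 and Dock10 at -1.68 over 12 libraries, and the other 14 genes lie between -0.71 and 1.12.

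The level of each member was set against the others as CPM per kilobase of merged exons, since longer genes gather more counts. In GFPiSMC libraries the order was Dock1 (6.97 ± 1.07), Elmo2 (5.34 ± 1.65), Dock10 (1.99 ± 0.43), Dock5 (1.79 ± 0.30), Elmo3 (0.657 ± 0.236), Elmo1 (0.503 ± 0.0853), Dock4 (0.264 ± 0.0455), and Dock2 (0.0878 ± 0.0266). The ranges of neighbours overlapped for Dock1 with Elmo2, Dock10 with Dock5, and Elmo3 with Elmo1, and were apart for the other neighbours. In Tgfbr1/2iSMCKO libraries, Dock1 (7.32 ± 0.84) and Elmo2 (6.33 ± 3.19) were again first, followed by Elmo1 (3.13 ± 0.57), Dock5 (1.10 ± 0.35), Elmo3 (1.02 ± 0.35), Dock10 (0.620 ± 0.161), Dock4 (0.230 ± 0.0765), and Dock2 (0.0884 ± 0.0437). Elmo1 stood at place 6 in GFPiSMC and at place 3 in Tgfbr1/2iSMCKO cells, where its range overlapped with that of Elmo2 and not with that of Dock5. Dock10 stood at places 3 and 6 by merged exons. Scaled to the longest transcript, Elmo1 and Elmo3 changed places in GFPiSMC libraries. In Tgfbr1/2iSMCKO libraries, Dock10 then stood above Dock5 and Elmo3 by mean, so its place there rests on the length used. Merged exons and longest transcript are 18267 and 7198 bases for Dock10, 12169 and 9988 for Dock5, and 3485 and 3189 for Elmo3.

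Summed per kilobase, the 3 ELMO genes came to 6.50 ± 1.67 CPM in GFPiSMC and 10.5 ± 3.88 CPM in Tgfbr1/2iSMCKO libraries. Elmo1 made up 7.96% ± 1.33 of this sum in GFPiSMC (6.49% to 9.58%) and 31.9% ± 7.38 in Tgfbr1/2iSMCKO cells (22.7% to 39.0%). The Elmo2 share was 81.3% ± 4.76 and 58.1% ± 8.72, and the Elmo3 share 10.8% ± 4.42 and 10.04% ± 2.56. Scaled to the longest annotated transcript in place of the merged exons, the Elmo1 share was 12.6% and 43.8%. Per merged exon length, Elmo2 was the main ELMO transcript in all 12 libraries, whereas per longest transcript Elmo1 was above Elmo2 in 3 of the 6 Tgfbr1/2iSMCKO libraries. The lowest Elmo1 shares among Tgfbr1/2iSMCKO libraries, 23.4% and 22.7%, were those of replicate 3, the animal with the highest Elmo2. Since Elmo1 was chosen for its difference, these shares are a description.

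The sum of Dock1 to Dock5, the partners of ELMO, was 9.14 ± 1.32 CPM per kilobase in GFPiSMC and 8.80 ± 0.86 in Tgfbr1/2iSMCKO libraries, with overlapping ranges. Dock1 made up 76.1% ± 1.41 and 83.2% ± 3.74 of it, and Dock5 19.6% ± 1.45 and 12.4% ± 3.65. Dock4 made up 2.94% and 2.65%, Dock2 0.989% and 1.04%, and Dock3 0.326% and 0.766%.

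**Figure D3:**
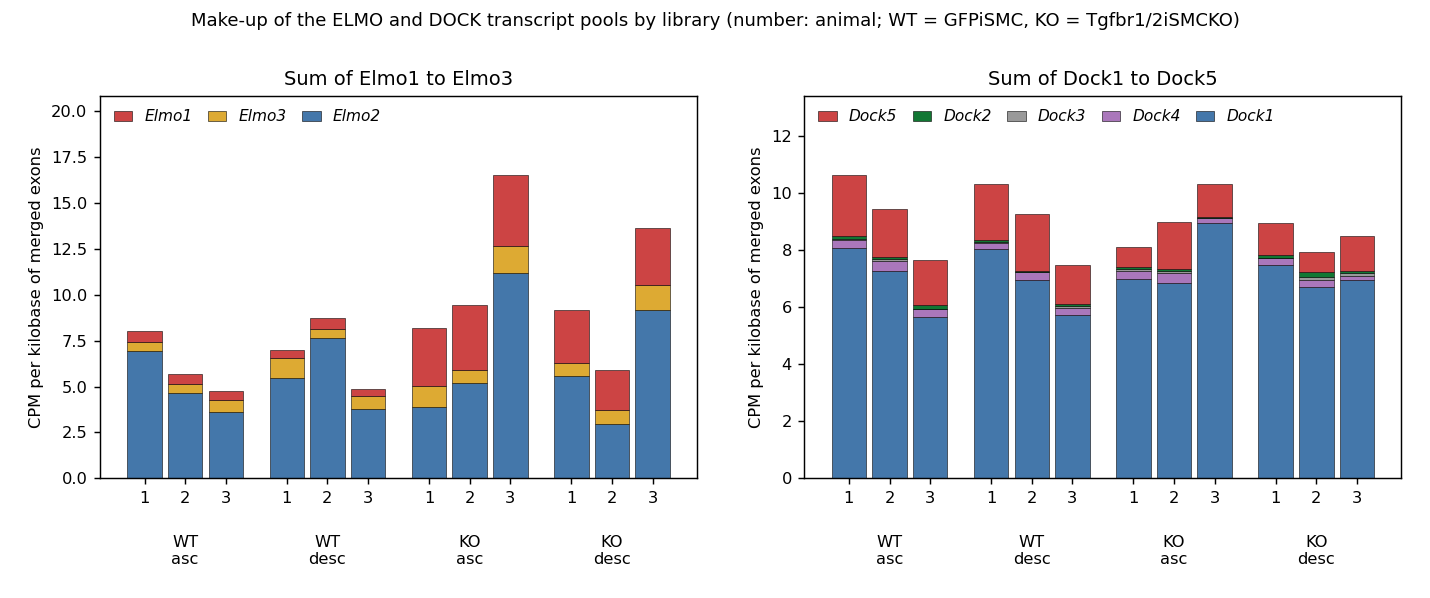
Stacked bars of CPM per kilobase of merged exons in each of 12 libraries, for Elmo1 to Elmo3 (left) and Dock1 to Dock5 (right). WT, GFPiSMC; KO, Tgfbr1/2iSMCKO; asc, ascending/arch; desc, descending. The Elmo1 part is 6.49% to 9.58% of the ELMO bar in GFPiSMC and 22.7% to 39.0% in Tgfbr1/2iSMCKO libraries, and Elmo2 and Dock1 form the largest parts.

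The segments were compared next, since Elmo1 was not chosen on these differences. The difference of the genotype effect between segments did not pass for any of the 8 members by edgeR, where 0 of 22320 genes passed (0.0%) and 659 genes (2.95%), none of them a member, had an unadjusted p under 0.05. DESeq2 called 8 genes there, again no member. It was -0.20 ± 0.32 on the log2 scale for Elmo1 (descending minus ascending/arch), -0.50 ± 0.41 for Dock10, and 1.22 ± 0.69 for Dock2, with an adjusted p of 1.00 for each. Within GFPiSMC cells, 0 of 8 members differed between segments (0.376% of all genes did) or had an unadjusted p under 0.05 (5.98% of all genes did), with log2 differences from -0.33 for Dock4 to 0.52 for Elmo3. Within Tgfbr1/2iSMCKO cells, 0 of 8 members differed by edgeR (0.112% of all genes did), and none had an unadjusted p under 0.05 (3.68% of all genes did). Elmo1 was lower in all 3 descending libraries than in the ascending/arch libraries there, by -0.38 ± 0.23 on the log2 scale (adjusted p = 1.0), and 4.08% of all genes were lower without overlap. Dock2 was higher in all 3, by 1.05 ± 0.49 (adjusted p = 1.0), where 3.15% of all genes were higher without overlap. Between genotypes, with 3 animals in each, an exact permutation test of a single value cannot go below p = 0.1. The segments come from the same animals, so that unpaired limit is not the one for these segment differences.

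Other genes of the Rac pathway were followed in 6 lists of 107 genes, of which 100 were tested over 12 libraries: 1 rose and 6 fell. Without Tgfbr1/2iSMCKO replicate 1, 0 rose and 1 fell, and without GFPiSMC replicate 1 or 3, 3 fell. Over all genes, 1.8% rose and 3.23% fell, and the difference from these counts was not tested. With the 2 libraries of each animal summed, of these 7 genes only Nedd9 passed (adjusted p = 0.0437), and Itgb5 (0.0538), Rhoq (0.0612), Prex2 (0.0880), Baiap2 (0.0975), Itgb3 (0.118), and Trio (0.218) did not. The median log2 fold change of the lists was -0.04, beside 0.04 over all genes. Downstream of the DOCK proteins, Rac1, the main substrate, had 207 ± 38.9 and 200 ± 37.6 CPM (log2 fold change -0.04 ± 0.15, adjusted p = 0.945). Rac3 had 5.14 ± 1.49 and 5.87 ± 1.12 CPM (log2 fold change 0.20 ± 0.24, adjusted p = 0.810). Rac2, the leukocyte form, had 0 to 46 counts per library (log2 fold change 1.66 ± 0.77, adjusted p = 0.312). Of 8 Rac and related GTPases, 1 fell: Rhoq (TC10), a relative of Cdc42, at 264 ± 59.4 and 151 ± 35.9 CPM (log2 fold change -0.78 ± 0.16, adjusted p = 0.0108).

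Upstream, RhoG, which binds ELMO directly, had 20.8 ± 4.00 and 18.6 ± 1.82 CPM (Rhog, log2 fold change -0.17 ± 0.17, adjusted p = 0.746). The adaptor Crk and its relative Crkl, which tie DOCK1 to phosphorylated scaffolds, had log2 fold changes of -0.21 ± 0.16 and -0.01 ± 0.23, and Bcar1 (p130Cas), the best known of those scaffolds, -0.34 ± 0.31. None of the 3 passed. Adgrb1, an ELMO1-binding receptor for phosphatidylserine on dying cells, had 5 to 59 counts per library and did not pass (adjusted p = 0.747). Of the 28 adaptors and receptors tested, 0 rose and 3 fell (1.8% and 3.23% of all genes did). Nedd9, a scaffold of the p130Cas family, fell from 142 ± 26.0 to 51.2 ± 17.9 CPM (log2 fold change -1.47 ± 0.23, adjusted p = 0.00183). The integrin subunits Itgb5 (-1.07 ± 0.20, adjusted p = 0.00609) and Itgb3 (-0.88 ± 0.17, adjusted p = 0.00684), which pair with the αv chain in adhesion and in uptake of apoptotic cells, fell as well. The genotypes did not overlap for these 3 genes, where 2.89% of all genes were lower without overlap.

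Of 21 other Rac exchange factors, 2 fell (3.23% of all genes did): Prex2 (-0.77 ± 0.17, adjusted p = 0.0157) and Trio (-0.51 ± 0.13, adjusted p = 0.0446), and neither passed with counts summed per animal. Over 12 libraries the genotypes overlapped for both. Within segments, Prex2 was apart, at 69.1 to 99.5 against 46.8 to 54.3 CPM in the ascending/arch (10.1% of all genes were lower without overlap) and at 30.7 to 34.9 against 13.7 to 27.3 CPM in the descending segment, and Trio was apart in the descending segment. There, 7.75% of all genes were lower without overlap. Neither passed the test in either segment. Of 15 Rac GTPase-activating proteins and GDIs, which turn Rac off or hold it in the cytosol, 0 passed by edgeR and 0 had an unadjusted p under 0.05 (5.03% and 16.1% of all genes did). Of 19 Rac effectors and WAVE complex genes, 1 rose (1.8% of all genes did): Baiap2 (IRSp53), which links Rac to the WAVE complex, at 24 to 87 counts per GFPiSMC library and 67 to 262 per Tgfbr1/2iSMCKO library (log2 fold change 1.65 ± 0.37, adjusted p = 0.0192, and 0.0975 with counts summed per animal).

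**Figure D4:**
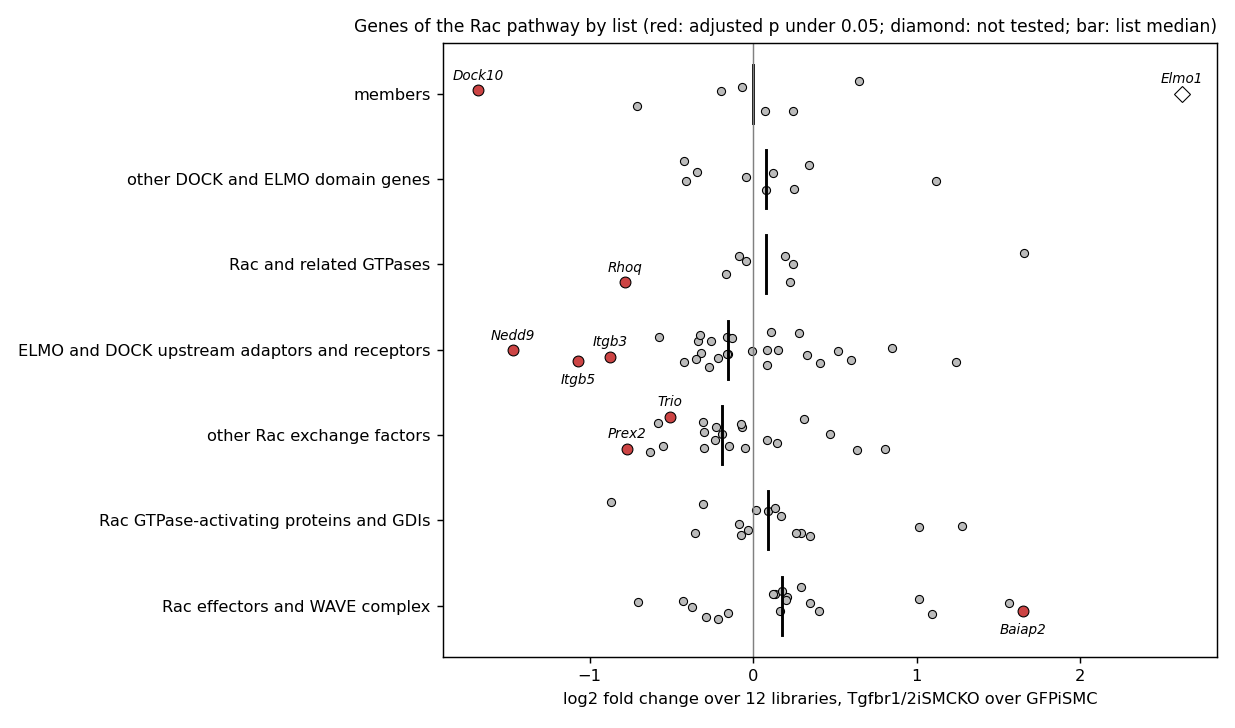
log2 fold change over 12 libraries (Tgfbr1/2iSMCKO over GFPiSMC) of the members and of 6 lists of Rac pathway genes. Red points passed the test, the open diamond is Elmo1, which was not tested, and bars are list medians. Red points use the 12-library test, and of them Dock10 and Nedd9 also passed with counts summed per animal. The red points are Dock10, Rhoq, Nedd9, Itgb5, Itgb3, Prex2, and Trio on the left and Baiap2 on the right.

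The genes whose pattern was most like that of Elmo1 were sought among 11135 genes that averaged 100 counts or more, by Pearson correlation of log2 CPM over the 12 libraries, which share animals and genotypes. These were Alad (r = 0.98), an enzyme of heme synthesis, Gm13008 (0.98), an antisense gene, Lancl1 (0.98), Fam13a (0.98), and Ssr1 (0.97), a subunit of the complex at the protein translocation pore. Their log2 fold changes were 1.32, 1.87, 1.34, 1.93, and 0.80. With the 4 group means removed, their correlations with Elmo1 fell to 0.62, 0.45, 0.18, 0.72, and 0.03, and the 5 genes most like Elmo1 were others: Ptpra (0.97), Grk5 (0.96), Gtpbp1 (0.96), Sf3a3 (0.96), and BC017158 (0.96). Among the members, Elmo2 had a correlation of 0.26 with Elmo1 over 12 libraries and of 0.90 with the group means removed, Dock1 of 0.33 and 0.68, Dock5 of -0.64 and 0.74, and Dock10 of -0.91 and 0.19. Dock4 went the other way with the group means removed (-0.32 over 12 libraries and -0.39). Elmo3 and Dock2 had too few counts for this comparison. Beside the members, Dock6, whose branch does not use ELMO in this way, had -0.47 and 0.70. With the group means removed, the segments of Tgfbr1/2iSMCKO replicate 3 also correlated with each other, at 0.66 over 9210 genes. The part of such shared deviations in these values was not tested.

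Elmo1, Dock2, Dock8, and Dock10 are also expressed by leukocytes, so leukocyte markers were followed in the same libraries. The 17 markers summed to 7.26 to 17.7 CPM in GFPiSMC and 10.2 to 27.2 CPM in Tgfbr1/2iSMCKO libraries. Ptprc (CD45) had medians of 1.84 and 1.62 CPM, the macrophage marker Adgre1 at most 0.384 CPM, and the T cell marker Cd3e at most 0.763 CPM. Of the other markers, Csf1r had medians of 4.46 and 4.19 CPM (log2 fold change -0.03) and Lyz2 of 2.18 and 2.81 CPM (0.57). Cd68 had medians of 0.277 and 1.04 CPM (log2 fold change 1.77), and C1qa of 0.382 and 0.641 CPM (1.15). Over the tested markers, log2 fold changes ran from -0.56 (Cx3cr1) to 3.58 (Fcer1g). Of 12 markers with enough counts, 0 passed by edgeR and 2 had an unadjusted p under 0.05 (16.1% of all genes did), both higher. The median log2 fold change of the 12 was 0.49. Of 8 endothelial markers, 1 rose (1.8% of all genes did): Cdh5, from 0 to 0.513 CPM in GFPiSMC to 0.497 to 2.71 CPM in Tgfbr1/2iSMCKO libraries (log2 fold change 2.97, adjusted p = 0.0250). The list's median log2 fold change was 0.99. Its sum, 68.0 to 101 and 55.6 to 109 CPM, was mostly Pecam1 (medians 80.0 and 75.5 CPM, log2 fold change -0.13). The other endothelial markers had log2 fold changes from 0.45 (Kdr) to 2.97 (Cdh5). Of 6 fibroblast markers, 1 fell (3.23% of all genes did): Col1a1, which SMCs also make (log2 fold change -1.45, adjusted p = 0.000289), and the list summed to 452 to 686 and 152 to 410 CPM. Of 4 Schwann cell markers, 2 were tested and 0 passed (1 had an unadjusted p under 0.05, beside 16.1% of all genes), with sums of 2.42 to 6.48 and 3.27 to 4.67 CPM. Of 8 smooth muscle markers, 0 passed and 2 had an unadjusted p under 0.05 (16.1% of all genes did), both lower. The part of these other cell types in the Elmo1 and Dock10 differences was not tested.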

How the data were processed

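GFP+ aortic SMCs were profiled by bulk RNA-seq in 12 libraries. The authors trimmed reads with Trim Galore, aligned them with HISAT2 to GRCm38, and quantified GENCODE M15 genes with StringTie. The deposited values are whole-number counts per gene, not normalized; how coverage became counts is not given in the sources used here, and counts of 2 (32279) outnumber counts of 1 (22574).

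Symbols and exon lengths came from GENCODE M21 (52489 of 52636 genes). Main tests used edgeR 4.0.16 in R 4.3.3 (filterByExpr, TMM, quasi-likelihood, Benjamini-Hochberg over 22320 genes), with segment and genotype over 12 libraries or 4 group means by segment. CPM use TMM library sizes. Each SE is |log2 fold change| / √F. Alternatives used DESeq2 1.42.0 and limma 3.58.1; figures used matplotlib 3.10.9. The steps were tested on simulated data. Members, lists, and tests were chosen with earlier results of these data known. The genes named are all members, DOCK relatives (1 gene of the rule is not reported here), fixed Rac partners, list genes with an adjusted p under 0.05 (at most 6 a list), the genes most like Elmo1, and Tgfbr1 and Tgfbr2. Segments of 1 animal carry the same genotype and number (correlation of deviations -0.242 to 0.661 over 9210 genes). Same-numbered animals of the genotypes share only a number (-0.527 to 0.216).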

Additional observations from a re-analysis of the deposited data

How the results depend on the processing

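Of 480 values recomputed under the alternatives, 432 kept their direction and their side of the threshold or moved by less than the spread between libraries. Elmo1 kept a log2 fold change between 2.50 and 2.75 over 12 libraries in 15 alternatives. The number of members lower over 12 libraries was 2 in place of 1, with Dock5 added, under DESeq2 and with a mean of at least 50 counts. In the ascending/arch it was 0 in place of 1 with a replicate block and with the segment fitted alone, and 0 to 0 with 1 animal left out, and in the descending segment 0 to 1 with 1 animal left out, in each case through Dock10. Pathway genes that rose numbered 3 with library size only, 2 with a mean of at least 50 counts, 4 with DESeq2, and 0 with counts summed per animal, in place of 1, and 0 to 1 with 1 animal left out (0 without GFPiSMC replicate 2, GFPiSMC replicate 3, or Tgfbr1/2iSMCKO replicate 1). Those that fell numbered 1 with counts summed per animal in place of 6, and 1 to 6 with 1 animal left out (3 without GFPiSMC replicate 1 or 3, 1 without Tgfbr1/2iSMCKO replicate 1). With the longest transcript as length, the Elmo1 share of the ELMO sum was 12.6% and 43.8%, and by Spearman correlation 1 of the 5 genes most like Elmo1 was shared. The cause of these changes was not tested.

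Direction changed only for log2 fold changes that passed in no setting. Dock2 was 0.053 with library size only, 0.0091 without segment in edgeR, and 0.020 with counts summed per animal. With 1 animal left out, Dock2 ranged from -0.34 to 0.18, Elmo2 from -0.29 to 0.48, Dock1 from -0.054 to 0.18, and Dock4 from -0.40 to 0.044. The replicate block by number gave Dock10 -1.68 over 12 libraries (adjusted p = 0.00161) and, beside the ascending/arch call, changed no call of a member. With the animal as block, no segment difference of a member passed. Library size only moved the median of all genes from 0.04 to 0.16. Over all genes, counts summed per animal gave 147 rises and 304 falls, and DESeq2 895 and 1139, in place of 402 and 721, and library size only 699 and 505. With 1 animal left out, 196 to 395 genes rose and 416 to 708 fell, with at most 239 rises and 464 falls when the animal was GFPiSMC replicate 1, 2, or 3 or Tgfbr1/2iSMCKO replicate 1. Where 1 animal was left out, its genotype rested on 2 animals.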
